A study of Mus musculus with 8 samples.

Results

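The 10 genes described here mark testis macrophages: Csf1r, Adgre1, Mrc1, Ly86, Cd68, Lyz2, Aif1, C1qa, C1qb and C1qc. They were chosen by name, with earlier results of these data known. Every probe whose RefSeq accession belongs to one of them was used, which gave 14 probes (3 for Csf1r, 2 each for Adgre1 and Aif1, and 1 for each of the other genes). These are 10 of the 17517 genes and 14 of the 36435 probes that could be compared. All 14 probes were well above background on all 8 arrays, and none was saturated, so no member was lost to a filter on low signal.

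The arrays carried RNA from Thy1+ testis cells of C57BL/6 mouse pups at postnatal day 4, kept with their mother and not treated. Thy1 is a cell surface glycoprotein by which undifferentiated spermatogonia are often sorted, and the labelled cell type is spermatogonial progenitor cells. There were 4 wild type (WT) samples and 4 samples with the genotype label Glis3KO2, whose titles read Glis3KO. Glis3 encodes a zinc finger transcription factor. How its allele was made, and whether cells of several animals were pooled, is not stated in the labels. The design text names 3 testes per genotype. The labels tie no sample to an animal of its own, so p-values here reflect only how these 8 samples vary, and that variation may be technical.

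Macrophages of the testis lie in the interstitium and on the wall of the seminiferous tubules, and are not germ cells. They depend on the receptor encoded by Csf1r, take up and digest material through scavenger receptors and lysosomes, and are a major source of complement C1q. C1q is assembled from the A, B and C chains encoded by the neighbouring genes C1qa, C1qb and C1qc and starts the classical complement pathway. In RNA from a whole cell fraction, fewer macrophages and less RNA per macrophage cannot be told apart.

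The 3 C1q genes lie on chromosome 4. The 250 bases upstream of the start of C1qb and C1qc are shown because their products go into the same protein. They are from RefSeq's promoter table on GRCm38.p6 and read 5′ to 3′ on the gene's strand, which is the minus strand for both. Capitals mark matches, on either strand, to GAGGAA (the core bound by PU.1, a macrophage transcription factor) and to TGCTGA (part of the site bound by MAF factors). C1qb spans chr4:136886201-136886450 and C1qc spans chr4:136892915-136893164.
C1qb: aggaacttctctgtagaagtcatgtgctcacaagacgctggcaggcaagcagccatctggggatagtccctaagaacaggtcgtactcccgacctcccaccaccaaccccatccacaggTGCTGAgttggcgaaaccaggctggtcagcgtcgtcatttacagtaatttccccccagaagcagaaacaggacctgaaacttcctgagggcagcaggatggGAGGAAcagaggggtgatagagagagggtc
C1qc: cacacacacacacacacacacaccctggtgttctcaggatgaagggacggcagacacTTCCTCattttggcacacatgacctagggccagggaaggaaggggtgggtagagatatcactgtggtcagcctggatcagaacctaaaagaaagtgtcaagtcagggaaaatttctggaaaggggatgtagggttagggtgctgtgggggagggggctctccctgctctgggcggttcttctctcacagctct
The GAGGAA match of C1qb began 30 bases before the start and its TGCTGA match 131 bases before it. The match of C1qc was TTCCTC, the same core on the other strand, 193 bases before the start. The table held 7 of the 10 members. GAGGAA or its complement occurred in 5 of these 7 (Mrc1, C1qb, C1qc, Cd68 and Aif1) and in 23.3% of all 32851 windows of this length. TGCTGA occurred in 2 of 7 (C1qb and Lyz2) and in 16.1% of all windows. The C/EBP motif TTGCNNAA occurred in 1 of 7 (Cd68) against 9.56%, and the TATA box TATAAA in 0 of 7 against 12.4%. Both strands were searched for each, and a match is a description of letters, not of binding.

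Signals are given as log2 of the processed intensity minus log2 of the array's 75th percentile, so that 0 is the level of the 75th percentile spot. That percentile lay between 243 and 533 intensity units, and 86.0% to 90.3% of spots were well above background. The 1 probe for Glis3 was lower in Glis3KO2, at -1.67 ± 0.49 (SD, n = 4) against -0.23 ± 0.94 in WT. WT replicates 3 and 4 read 0.57 and 0.60 there, while WT replicates 1 and 2 read -1.09 and -1.01, close to the highest Glis3KO2 array at -1.18. Whether the probe lies in sequence changed by the allele is not known here, so it is a limited check of the labels. WT replicates 3 and 4 also stood apart in the germ cell list (12 genes), at a mean of 0.92 and 1.12 with each gene centred over the arrays, against -0.67 to -0.14 on the other 6 arrays. The members' differences and the gene list counts are therefore given with and without them. These arrays were picked out in these same data, and the members were low on them too, at centred means of -0.65 and -0.92. Leaving them out raises the members' WT means and so lowers their differences by construction. On both slides the WT arrays occupied positions 1 and 2 and the Glis3KO2 arrays positions 3 and 4, so position and genotype cannot be told apart.

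The macrophage genes varied widely among arrays of the same genotype, and no member passed the test between genotypes. Mean signal was higher in Glis3KO2 for 9 of the 10 genes and lower for C1qb. The median log2 difference of the 10 was 0.32, against -0.08 over all genes, of which 40.8% were higher in Glis3KO2. With WT replicates 3 and 4 left out, 2 members were higher and the median difference was -0.30. Leaving out WT replicate 4 alone, or Glis3KO2 replicate 1 alone, left 5 members higher, with medians of -0.01 and 0.02. Without WT replicate 3 the median was 0.17, and without WT replicate 1, or Glis3KO2 replicate 3, it was 0.57 or 0.48. Limma called 0 of the 10 at an adjusted p under 0.05, and 0% of the 17517 genes. At an unadjusted p under 0.05 it called 0 members, against 6.91% of all genes (2.15% higher and 4.76% lower, or 377 and 833 genes). With normexp background correction and quantile normalization that split was 472 higher and 611 lower. The genotypes overlapped for all 10 members, whereas they did not overlap for 3.51% of genes. Standard errors of the members' differences ranged from 0.30 to 0.54 on the log2 scale, against a median of 0.30 over all genes.

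**Figure D1:**
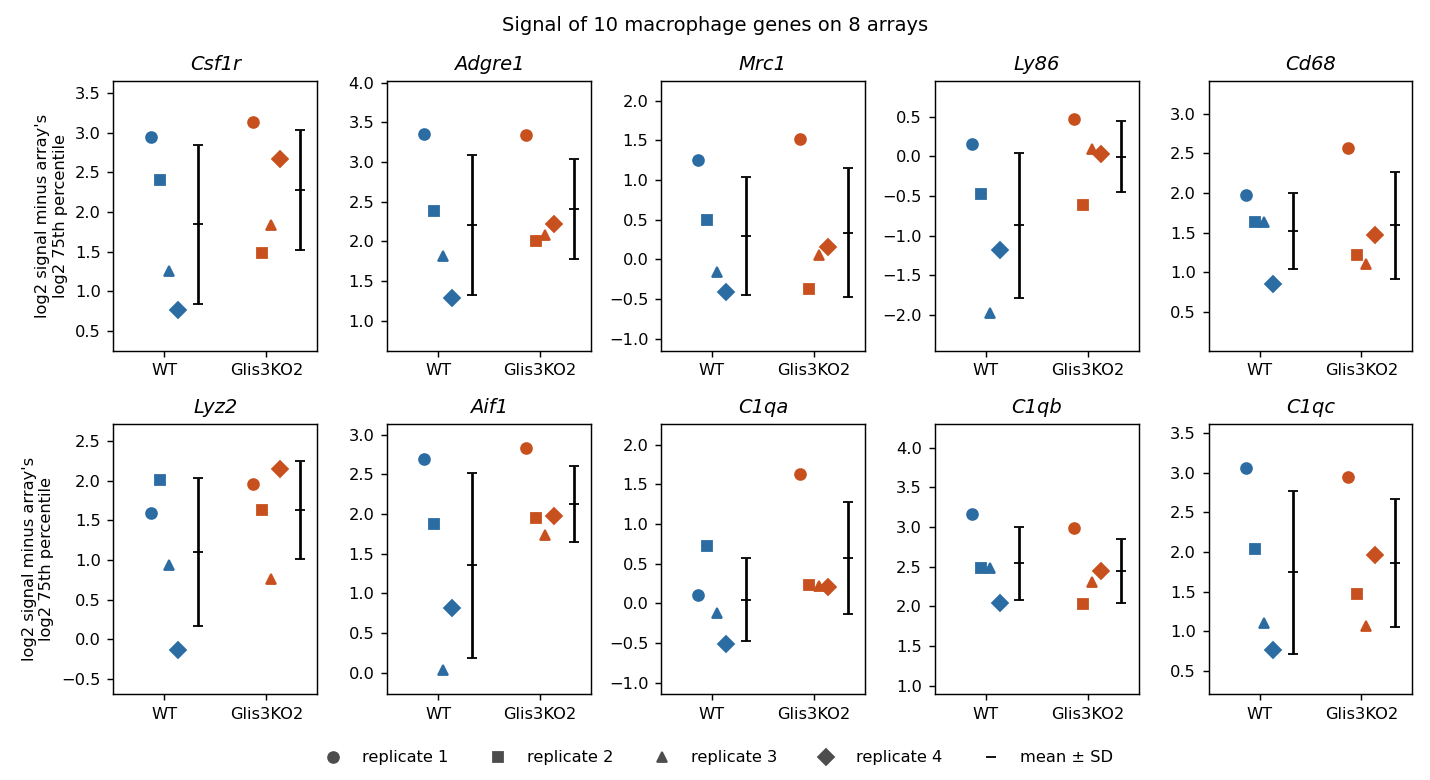
Signal of each member on every array (log2 intensity minus log2 of the 75th percentile), with the marker shape giving the replicate number and bars the mean ± SD of 4 arrays per genotype. The genotypes overlap in all 10 panels, and the replicate 1 arrays lie at or near the top in most.

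Csf1r encodes the receptor for the growth factors CSF1 and IL-34, on which macrophage survival depends. Its log2 signal was 2.94, 2.40, 1.26 and 0.77 in WT replicates 1 to 4, and 3.13, 1.48, 1.83 and 2.67 in Glis3KO2 replicates 1 to 4. The Glis3KO2 arrays lay inside the WT range except replicate 1, which was just above it. Mean signal was 1.84 ± 1.0 (SD, n = 4) for WT and 2.28 ± 0.76 (SD, n = 4) for Glis3KO2, a difference of 0.44 (SE 0.52, 95% interval -0.73 to 1.6, limma adjusted p = 0.828). Without WT replicates 3 and 4 the difference was -0.39, and without WT replicate 4 alone it was 0.08.

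Adgre1 encodes F4/80, the surface adhesion receptor most used to identify mouse macrophages. WT arrays read 3.35, 2.38, 1.81 and 1.29 and Glis3KO2 arrays 3.34, 2.0, 2.08 and 2.22. Replicate 1 was the highest array in each genotype, at nearly the same level, and WT replicates 3 and 4 lay below all Glis3KO2 arrays. The difference was 0.20 (SE 0.46, interval -0.82 to 1.22, limma adjusted p = 0.917). It was -0.46 without WT replicates 3 and 4, -0.10 without WT replicate 4 alone and -0.11 without Glis3KO2 replicate 1.

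Mrc1 encodes the mannose receptor CD206, an endocytic receptor of tissue macrophages. Its signal was 1.25, 0.50, -0.16 and -0.42 in WT and 1.51, -0.37, 0.05 and 0.15 in Glis3KO2. Here too replicate 1 was the highest in both genotypes. The means were almost equal, 0.29 ± 0.75 and 0.33 ± 0.82 (SD, n = 4), with an interval for the difference of -1.0 to 1.08 (limma adjusted p = 0.985). The difference of 0.04 was -0.54 with WT replicates 3 and 4 both left out, and -0.11, -0.19 and -0.35 without WT replicate 3, WT replicate 4 and Glis3KO2 replicate 1 in turn.

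Ly86 encodes MD-1, the partner of the receptor CD180 (RP105) in sensing bacterial lipids. WT arrays read 0.15, -0.47, -1.98 and -1.18, and Glis3KO2 arrays 0.47, -0.61, 0.10 and 0.03. WT replicates 3 and 4 were below every Glis3KO2 array, while WT replicates 1 and 2 were inside the Glis3KO2 range. Ly86 had the largest difference of the 10, 0.87 (SE 0.44, interval -0.11 to 1.84, limma adjusted p = 0.696). The difference was 0.16 when WT replicates 3 and 4 were left out, and 0.50 without WT replicate 3 alone.

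Cd68 encodes a heavily glycosylated lysosomal membrane protein of phagocytes. The WT signals of 1.98, 1.63, 1.64 and 0.85 and the Glis3KO2 signals of 2.57, 1.22, 1.10 and 1.48 spanned much the same range. Their difference was 0.07 (SE 0.37, interval -0.76 to 0.89, limma adjusted p = 0.969), and it was -0.16 without WT replicate 4 and -0.26 without Glis3KO2 replicate 1. Leaving out both WT replicates 3 and 4 gave -0.21.

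Lyz2 encodes the lysozyme made by macrophages and neutrophils. Its only probe may also bind RNA of the very similar gene Lyz1, so its level is uncertain. WT arrays read 1.59, 2.0, 0.93 and -0.13 and Glis3KO2 arrays 1.96, 1.64, 0.76 and 2.15. This was the 1 member with its highest signal on Glis3KO2 replicate 4, and WT replicate 4 was the lowest array. The difference was 0.53 (SE 0.47, interval -0.52 to 1.58, limma adjusted p = 0.765). It was -0.17 once WT replicates 3 and 4 were dropped, and 0.12 with only WT replicate 4 dropped. A list of 10 neutrophil genes was also highest on Glis3KO2 replicate 4, at a centred mean of 2.58, against 0.18 for the members. The part of neutrophils in the Lyz2 signal was not tested.

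Aif1 encodes IBA1, a calcium-binding protein that bundles actin in macrophages. It varied most of the 10, over 2.79 log2 units: 2.69, 1.87, 0.03 and 0.81 in WT, and 2.83, 1.95, 1.74 and 1.98 in Glis3KO2. The Glis3KO2 arrays stayed together between 1.74 and 2.83, and the WT arrays ran from 0.03 to 2.69, with replicates 3 and 4 below all of the Glis3KO2 arrays. The difference was 0.77 (SE 0.52, interval -0.40 to 1.94, limma adjusted p = 0.712). With both of those WT arrays left out it was -0.16, and with only replicate 3 left out 0.33.

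C1qa, C1qb and C1qc encode the 3 chains of complement C1q. Their differences were not tested against each other, and their intervals overlap widely. C1qa read 0.10, 0.72, -0.12 and -0.52 in WT and 1.63, 0.24, 0.22 and 0.21 in Glis3KO2. Glis3KO2 replicate 1 stood far above the other 3 arrays of its genotype. The difference was 0.53 (SE 0.39, interval -0.34 to 1.39, limma adjusted p = 0.726). It was 0.17 without Glis3KO2 replicate 1, 0.34 without WT replicate 4, and 0.16 with WT replicates 3 and 4 left out. C1qb read 3.16, 2.48, 2.48 and 2.04 in WT and 2.99, 2.03, 2.31 and 2.44 in Glis3KO2. It varied least of the 10, over 1.13 log2 units, with a difference of -0.10 (SE 0.30, interval -0.77 to 0.57, limma adjusted p = 0.940). Leaving out WT replicate 1 gave 0.11, and leaving out Glis3KO2 replicate 2 gave 0.04. The value was -0.38 with WT replicates 3 and 4 excluded. It was also above 0 with normexp correction and 75th percentile scaling, and with array weights. C1qc read 3.06, 2.04, 1.11 and 0.76 in WT and 2.94, 1.47, 1.07 and 1.96 in Glis3KO2, so that the replicate 1 arrays were the highest in both genotypes. Its difference was 0.12 (SE 0.54, interval -1.09 to 1.32, limma adjusted p = 0.962). Dropping both WT replicates 3 and 4 gave -0.69, and dropping WT replicate 3, WT replicate 4 or Glis3KO2 replicate 1 alone gave -0.09, -0.21 and -0.24.

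The arrays fell in a similar order for most members. Both replicate 1 arrays were the 2 highest for 8 of the 10 members, and the lowest array was WT replicate 4 for 7 members and WT replicate 3 for 2. With each gene centred over the arrays, the mean of the 10 was 0.68, 0.21, -0.65 and -0.92 on WT replicates 1 to 4 and 0.99, -0.25, -0.23 and 0.18 on Glis3KO2 replicates 1 to 4. All 10 members were above their own mean on Glis3KO2 replicate 1 and none was on WT replicate 4.

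Samples with the same replicate number were compared as pairs, with Glis3KO2 minus WT taken in each. The labels name no pairs, and pairs 3 and 4 are not told apart by the data. In pair 1, 7 of the 10 members were higher in Glis3KO2, with a median difference of 0.22. In pair 2 only 1 member (Aif1, 0.08) was higher and the median was -0.44. Pair 3 had 6 higher and a median of 0.24, and pair 4 had all 10 higher and a median of 1.05. The medians of all genes in these pairs were -0.07, 0.00, -0.13 and -0.12, and 45.4%, 50.1%, 41.2% and 42.3% of all genes were higher in Glis3KO2. Over the 4 pairs the members were higher in Glis3KO2 in 24 of 40 comparisons, and no member had the same direction in every pair except Aif1.

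**Figure D2:**
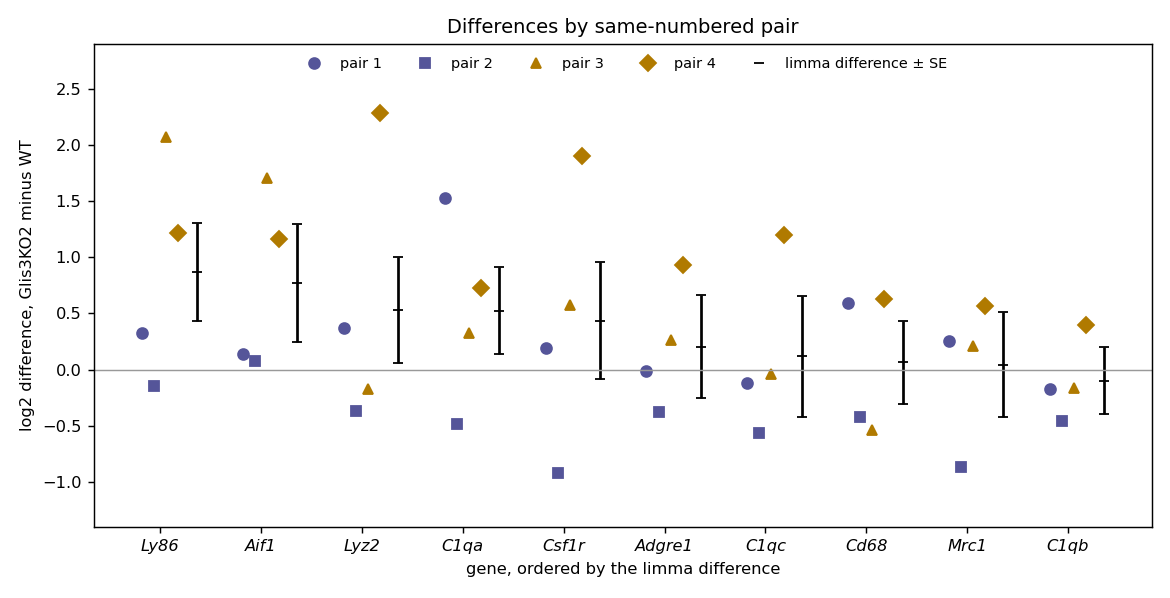
Difference of Glis3KO2 minus WT (log2) for each member, with points for pairs 1 to 4 and the limma difference ± SE beside them. Pair 2 is below 0 for all members but Aif1, pair 4 is above 0 for all 10, and the limma difference is smaller than its SE for 6 of the 10 members.

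Genes with several probes allowed a check of each probe against the others. The 3 Csf1r probes gave differences of 0.44, 0.40 (SE 0.51) and 0.24 (SE 0.36), and the 2 Aif1 probes 0.77 and 0.73 (SE 0.56). The 2 Adgre1 probes disagreed in sign, 0.20 against -0.09 (SE 0.40), both well inside their errors. For Aif1 both probes had WT replicate 3 as the lowest array. Across every kept probe, 6.4% had an unadjusted p under 0.05, and none of the 14 members' probes did.

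**Figure D3:**
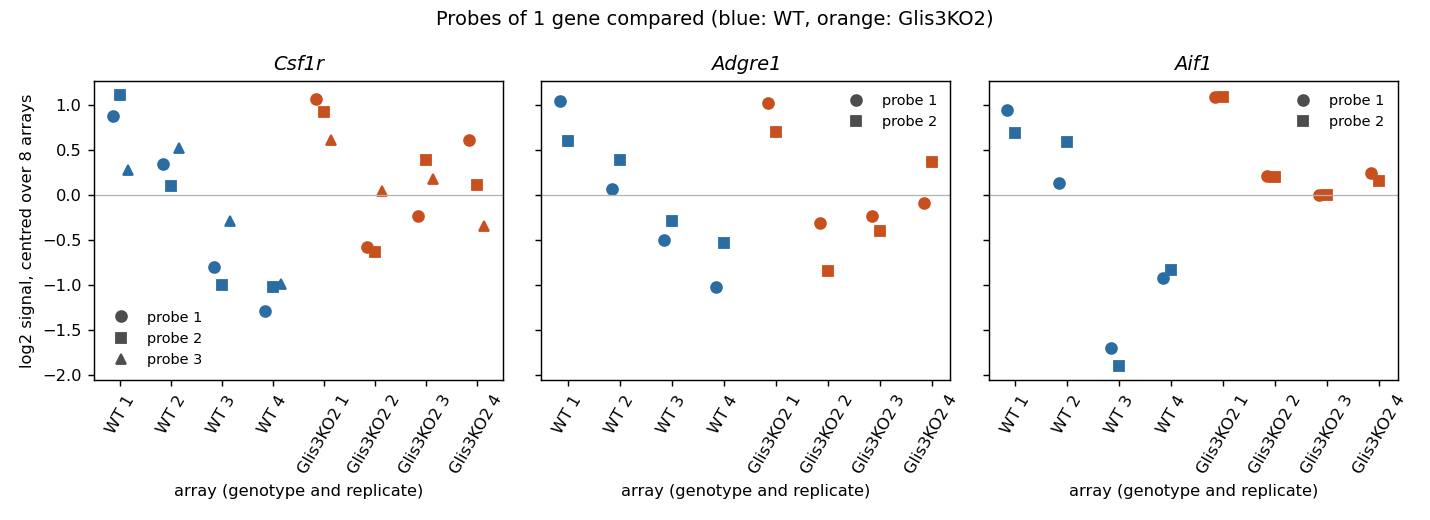
Signal of every probe of Csf1r, Adgre1 and Aif1 on each array (log2, centred over the 8 arrays for each probe), with blue for WT and orange for Glis3KO2. Both probes of Aif1 are lowest on WT replicate 3, and all probes of Adgre1 are highest on Glis3KO2 replicate 1 or WT replicate 1.

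Over all 8 arrays, most genes in the lists of other macrophage genes and of other complement genes had higher means in Glis3KO2. In each list fewer were higher once WT replicates 3 and 4 were left out. Each of these lists lay below its own mean over the 8 arrays on both, so leaving them out raised its WT mean. WT replicate 3 was not always among the lowest arrays. The Toll-like receptor list was at -0.17 there, against -0.22 and -0.23 on Glis3KO2 replicates 2 and 3. The growth factor and transcription factor list was at -0.22 there, against -0.34 on Glis3KO2 replicate 3. No list had a gene with an adjusted p under 0.05. Of 11 growth factor and transcription factor genes, 7 were higher in Glis3KO2 and 4 lower, with a median of 0.07, and Irf5 (0.60, SE 0.25) and Nr1h3 (-0.81, SE 0.31) had unadjusted p under 0.05. Without WT replicates 3 and 4, 3 of the 11 were higher and the median was -0.51, with Irf5 at 0.63 and Nr1h3 at -0.59. Of 14 phagocytic and Fc receptor genes, 11 were higher and the median was 0.18, with Marco at 0.92 (SE 0.74) and Msr1, a scavenger receptor, at 0.40 (SE 0.41). On the remaining 6 arrays 2 of the 14 were higher, the median was -0.34, and Marco and Msr1 were at -0.18 and -0.24. Of 9 tissue-resident macrophage genes, 8 were higher and the median was 0.41, led by the hyaluronan receptor gene Lyve1 (1.11, SE 0.50) and by Cbr2 (0.60, SE 0.38). Leaving out the same WT arrays, 4 of 9 were higher and the median was -0.27, while Lyve1 was at 1.45. Lyve1 was dim, and its lowest array was WT replicate 1 (-4.13), on which most members were high. All 10 lysosomal and oxidative burst genes were higher, with a median of 0.37, as with Cyba (0.58, SE 0.43) and Laptm5 (0.61, SE 0.47), but 3 of 10 were higher, with a median of -0.26, without those arrays. Of 6 genes of Toll-like receptors and their partners, 3 were higher and 3 lower, with a median of 0.02. Tlr4 was at 0.62 (SE 0.28), Ly96 at 0.53 (SE 0.34) and the Ly86 partner Cd180 at -0.03. Without those arrays 2 of 6 were higher and the median was -0.17. Among 8 other classical complement genes 7 were higher, with a median of 0.47, and C1s1 (1.08, SE 0.42), a protease of the C1 complex, had an unadjusted p under 0.05, with Serping1, the C1 inhibitor, at 0.92 (SE 0.55). With the 2 WT arrays left out, 4 of the 8 complement genes were higher, the median was -0.01, and C1s1 was at 0.32. The centred mean of the complement list was -0.25 on WT replicate 1 and 0.51 on Glis3KO2 replicate 2. The members were at 0.68 and -0.25 there, and had the same sign as this list on the other arrays.

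Lists of other leukocytes are given beside the members because the Thy1+ fraction could hold them. Each of the 10 pan-leukocyte genes was well above background on all 8 arrays. All 10 pan-leukocyte genes were higher in Glis3KO2, with a median of 0.38, as with Rac2 (0.60, SE 0.49) and Cd53 (0.41, SE 0.35). Their centred mean per array was 0.55, 0.55, -0.90 and -0.93 in WT and 0.49, 0.19, -0.52 and 0.56 in Glis3KO2. With WT replicates 3 and 4 left out, 0 of these 10 genes were higher and their median was -0.37. Of 6 MHC class II genes 4 were higher (H2-Aa 0.75, SE 0.49, and Cd74 0.73, SE 0.50). All 6 monocyte genes were higher, with a median of 0.60 (Ly6c2 0.64, SE 0.51). Of 10 neutrophil genes 8 were higher, with a median of 0.70, against 0.32 for the members. Mmp9 was 1 of the 2 lower neutrophil genes (-0.99, SE 0.42), at an unadjusted p under 0.05. Only 5 of the 10 neutrophil genes were well above background on every array. The mast cell list had 5 of 7 higher (Tpsb2 0.74), the dendritic list 3 of 6 and the lymphocyte list 8 of 10 (Ncr1 0.48). In the dendritic list Clec9a was at 2.0, with an unadjusted p under 0.05, but was well above background on only 2 of 4 WT arrays. Leaving out WT replicates 3 and 4, 2 of 6 MHC class II genes were higher. So were 1 of 6 monocyte genes (Ly6c2 -0.24, list median -0.42) and 4 of 10 neutrophil genes (Mmp9 -0.30, list median -0.16). In the remaining lists the numbers higher were 2 of 7 mast cell, 2 of 6 dendritic (Clec9a 2.36) and 2 of 10 lymphocyte genes. The summed linear signal of the 10 members, relative to the 75th percentile, ran from 16.3 to 53.1 in WT and from 25.3 to 58.8 in Glis3KO2, and that of the 10 pan-leukocyte genes from 13.6 to 36.1 and from 17.0 to 35.0.

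Germ cell genes had lower and stromal genes higher means in Glis3KO2. All 12 germ cell genes were lower in Glis3KO2, with a median of -0.85, and 4 had an unadjusted p under 0.05 (Nanos3 -1.16, SE 0.26). Their summed linear signal was 26.0 to 101.7 in WT and 24.8 to 42.2 in Glis3KO2. All 10 stroma and peritubular myoid genes were higher, with a median of 1.13, and 2 had an unadjusted p under 0.05 (Des 1.39, SE 0.52), and their summed signal was 62.1 to 240.0 in WT and 129.7 to 456.9 in Glis3KO2. On WT replicates 3 and 4, where the members were low, the germ cell list was at its highest (0.92 and 1.12) and the stroma list at its lowest (-1.20 and -1.31). Without these arrays 10 of the 12 germ cell genes were lower, with a median of -0.06, and Nanos3 was at -0.97. With the same arrays left out, all 10 stroma genes were higher, with a median of 0.38, and Des was at 0.94. Of 8 Sertoli genes 2 were higher (Clu -0.94), of 5 Leydig genes 1 (Hsd3b1 -0.49), of 7 endothelial genes 4 (Cdh5 0.72) and of 4 erythroid genes 1 (Alas2 -0.67). With those arrays left out the numbers higher were 5 of 8 Sertoli, 0 of 5 Leydig, 3 of 7 endothelial and 1 of 4 erythroid genes. The part of these lists in the members' differences was not tested.

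**Figure D4:**
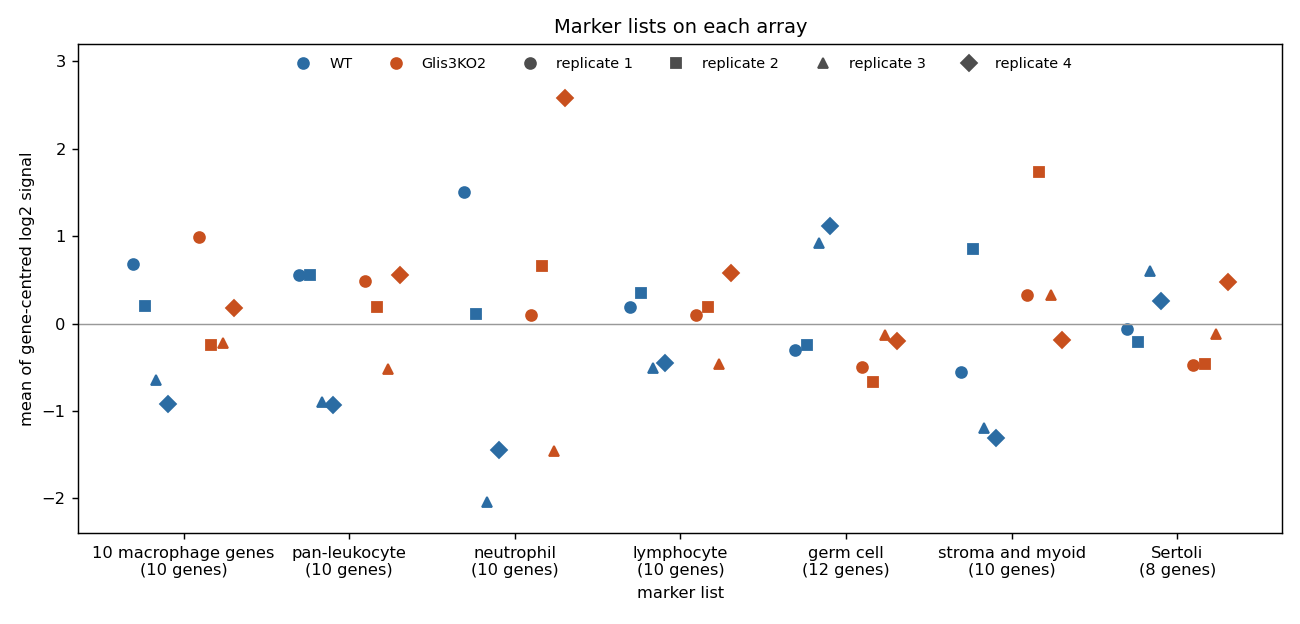
Mean of gene-centred log2 signal on each array for the 10 members and 6 other lists (pan-leukocyte, neutrophil, lymphocyte, germ, stroma and myoid, Sertoli). WT replicates 3 and 4 are the lowest arrays for the members and the pan-leukocyte genes, and the highest for the germ cell genes.

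The genes outside the 10 whose array pattern was nearest to the members' mean were found by the root mean square distance of centred log2 values over the 8 arrays. Distances were taken for 17501 other genes, and provisional symbols (Gm, LOC and Rik names) were passed over in naming the nearest. Nearest were Nckap1l (0.0853), which encodes a blood cell subunit of the actin-regulating WAVE complex, Ctsc (0.0950), a lysosomal protease gene, and Pkib (0.0963), a protein kinase A inhibitor gene. Apoe (0.133), which encodes a lipid carrier made by macrophages, and Cyp27a1 (0.134), a sterol hydroxylase gene, followed. The median distance of other genes was 0.753, and a gene flat over the arrays would be at 0.602. Ctsc and Apoe also belong to the lysosomal and tissue-resident lists above. Among the members, Adgre1 was nearest to their mean (0.181) and Lyz2 farthest (0.462). Each member is part of that mean, which shortens its distance. Even so, 4.84% of the other genes were nearer to the mean than Lyz2. The distance is a description over 8 arrays that share the same genotypes and scaling.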

How the data were processed

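RNA of Thy1+ testis cells went through NuGEN Ovation Pico whole-transcriptome amplification and was labelled with Cy3, per the labels' protocols, and hybridised to 1-colour Agilent arrays. The deposited scanner files hold an intensity per spot, background-subtracted by Agilent Feature Extraction (version 12, per the submitters' processing notes). The deposited value table was equal to it on 100% of spots.

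Here log2 intensity was scaled by subtracting log2 of the 75th percentile of an array's non-control spots. Outlier spots (73 to 109 per array) were left out and spots of a probe averaged. Of 41174 probes, 28223 matched 1 gene by unversioned RefSeq accession (GRCm38.p6), 0 several, and 12951 stayed unnamed. Probes well above background on at least 4 arrays were kept. The probe of highest mean stood for its gene. The test was limma (3.58.1, R 4.3.3), genotype as the only term, Benjamini-Hochberg over all genes, at 0.05, and the code was tested on simulated data.

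Same-numbered samples deviated together (r = 0.16, 0.34, 0.18 and 0.13 for numbers 1 to 4), so the numbers were taken as pairs. Crossed samples of numbers 3 and 4 correlated as much (0.14 for WT 3 with Glis3KO2 4, 0.12 for WT 4 with Glis3KO2 3), so these 2 pairs are not told apart by the data. Named besides the 10 members were the 2 genes of smallest p in each list of macrophage, pan-leukocyte, complement or MHC class II genes, 1 in each other list, and the 5 nearest in pattern. Cd180 was named after its value was seen. The members and lists were chosen with earlier results of these data known. Alternatives were other background corrections and normalizations, array weights, slides, the replicate block and arrays left out.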

Additional observations from a re-analysis of the deposited data

Results flagged for a closer look

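In Glis3KO2, the signal of C1qa on replicate 1 stood apart from the other 3 arrays: its gap to the nearest was 0.984 of the group's range (1.63 against 0.21 to 0.24) (Dixon's test for 4 samples, 95% level). Adgre1 on the same array had a gap of 0.833 of the range (3.34 against 2.0 to 2.22). These were 2 of 22 groups examined, and chance alone flags about 1 in 20.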

How the results depend on the processing

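No member was called under any alternative, the smallest adjusted p being 0.370 (limma with array weights). Of 24 alternatives, 6 left every member's difference as it was (the filters on dim probes, outlier spots kept, limma's trend and robust options, and the slide and replicate blocks). Under the other 18, 26 of 180 gene values turned direction, none of them of Ly86 or C1qa. The replicate block called 0 genes, with 1879 genes at an unadjusted p under 0.05 against 1210 without it, 0 of them members, and a smallest adjusted p of 0.468 among members. Excluding WT replicates 3 and 4, which were picked out in these same data, left 2 members higher. It gave differences of -0.39 (Csf1r), -0.46 (Adgre1), -0.54 (Mrc1), -0.21 (Cd68), -0.17 (Lyz2), -0.16 (Aif1) and -0.69 (C1qc). Excluding replicate 1 of both genotypes, chosen after seeing the data, gave -0.0293 for Mrc1 and -0.11 for Cd68. Within slide 1 C1qc was -0.0780, and within slide 2 Mrc1 was -0.15. C1qb was 0.105 with normexp and 75th percentile scaling and 0.0933 with array weights, and Cd68 was -0.0081 with normexp and quantile normalization. Leaving out 1 array in turn gave Adgre1 -0.11 to 0.58, C1qb -0.28 to 0.11, C1qc -0.24 to 0.56, Cd68 -0.26 to 0.23, Mrc1 -0.35 to 0.36, Csf1r 0.08 to 0.80, Lyz2 0.12 to 0.83, C1qa 0.17 to 0.75, Aif1 0.33 to 1.22 and Ly86 0.50 to 1.21, and between 5 and 10 members higher (5 without WT replicate 4 or Glis3KO2 replicate 1). Genes at an unadjusted p under 0.05 numbered 2317 with array weights (with the members Ly86 and Aif1), 2412 without WT replicate 2, 664 without WT replicate 3 and 771 without WT replicates 3 and 4. Ly86 and Aif1 were also below it without WT replicate 1, and Ly86 without Glis3KO2 replicate 2 and without replicate 1 of both genotypes. Quantile normalization called 1 gene of all. The causes were not tested. Normexp with the 75th percentile moved the median of all genes from -0.08 to -0.23 and that of the members from 0.32 to 0.48. The number of arrays limits the precision.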
